A study of Mus musculus with 18 samples.

Results

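Collagens are the most abundant proteins of the extracellular matrix. They are built from 3 alpha chains wound around each other, and each chain has its own gene, so that cells set the kind of fibril, network or filament around them by the chain genes they transcribe. The fibrillar chains (types I, II, III, V, XI, XXIV and XXVII) form the banded fibrils of bone, tendon and cartilage, the FACIT chains (fibril-associated collagens with interrupted helices) sit on those fibrils, the type IV chains form the basement membranes under endothelium and around muscle, and types VI, VIII, X, XV and XVIII make filaments, networks and perivascular matrix. In the developing long bone, a cartilage template rich in types II, IX and XI gives way to bone and marrow rich in type I, and type X marks the hypertrophic cartilage at that border. The genes described here are all 44 genes named Col, a type number, the letter a and a chain number among the 20275 genes of the count matrix, a rule on names that uses no measured value. They comprised 11 fibrillar, 9 FACIT, 6 basement membrane, 9 beaded filament and anchoring, 3 short-chain network, 4 transmembrane and 2 multiplexin genes.

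The study profiled bone marrow (BM) cells of C57B6/J mice at embryonic days 16.5 and 18.5 (E16.5, E18.5), at birth (P0) and in the adult by droplet 3' single-cell RNA-Seq together with antibody-derived tags (CITE-Seq), with no genetic change or treatment named in any group. Cells came from pooled animals and were sorted either as stroma (CD45-Ter119-) or as hematopoietic progenitors (HPs; CD45+Lineage-c-Kit+, written Lineage-Kit+ in the labels). Perinatal cells came from the skeleton without the head, and adult cells from tibias, femurs, pelvic bones and spines. Only adult samples had a red cell lysis step. Stage, bone set and preparation therefore cannot be told apart between the perinatal and adult libraries. Per the study's methods, stromal cells came from a collagenase digestion that is not described for hematopoietic cells. Compartment and digestion thus cannot be told apart between stroma and HPs. There was 1 stromal library per stage, so that a difference between stages could not be tested, and there were 5 HP libraries, of which 2 were from E16.5.

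Where 4 values follow each other they are in the order of age (E16.5, E18.5, P0, adult). The stromal libraries held 8226, 6642, 14084 and 6267 cells, with 91868751 to 194892476 unique molecular identifiers (UMIs) per library and a median of 11810 to 15590.5 UMIs per cell. The P0 library stood apart in its thin cells, since 10.4% of them had under 1000 UMIs against 0.389% to 2.53% in the other libraries. These cells lay mostly in the clusters with the deposited codes CF1, CF2, UD2 and UD3, and results that rest on those clusters are given with their depth. Of the 35219 stromal cells, 276 carried a 16-base barcode that also occurred in another stromal library. The 66 stromal clusters of the deposited annotation were given an "X-like" name only when at least 3 of their 10 leading genes were markers on lists that hold no collagen, which named 34 of them. Chondrocyte, hypertrophic chondrocyte, fibroblast, tendon, pericyte, skeletal muscle, Schwann cell and endothelial names were all met, an osteoblast-like and a CAR-like (CXCL12-abundant reticular) cluster were named in the adult, and no stromal cluster was led by blood genes. The study states that it took blood cell contaminants out of its processed stromal data, so the last point may follow from that step. Hypertrophic chondrocyte-like and skeletal muscle-like clusters were present at each stage. The hypertrophic name rests on markers that include Ihh, a gene of prehypertrophic chondrocytes, and so takes in those cells too.

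Levels are given as CPM, the UMIs of a gene per 1000000 UMIs of the library or cluster. Each UMI stands for 1 captured 3' end, so no length was divided out, and ratios between genes are ratios of UMIs. Intervals are exact Poisson 95% intervals and cover counting error only. In sums over a library, a smaller share of cells that express a gene and less RNA per cell cannot be told apart.

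Collagen genes made up a large share of the stromal transcriptome. The 44 genes together took 3.36%, 6.96%, 6.31% and 5.73% of all stromal UMIs, against 23.5 to 47.4 CPM in the HP libraries. Fibrillar chains supplied most of them at every stage, with 70.7%, 75.2%, 75.7% and 80.1% of collagen UMIs. The FACIT share was 23.6%, 20.8%, 19.1% and 12.8%. Col2a1, the chain of type II collagen in cartilage fibrils, was the first gene at each stage with 34.6%, 47.7%, 45.2% and 40.1% of collagen UMIs, and Col1a1, a chain of the type I collagen of bone and tendon, held 5.47%, 4.40%, 6.46% and 11.1%. Type II was thus the leading collagen mRNA in each library, and the share of Col1a1 was largest in the adult. All 44 genes had at least 1 UMI in each stromal library. Of these, 24 reached 100 CPM in a stromal library or 500 CPM in a cluster of at least 50 cells and are described one by one.

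The sorted compartments were compared first, since the sort itself used antibodies and not mRNA. The deposited stroma holds fewer cells than the study reports sequencing, while the HP libraries hold the reported numbers. The study states that it took blood cell contaminants out of its processed stromal data. The stromal side may thus have been cleaned by mRNA, while the adult HP library kept a cluster coded Stroma. Col1a1 was at 1839, 3061, 4079 and 6383 CPM in stroma and at 0.572, 1.14, 1.74, 0.714 and 1.11 CPM in HPs, where the 2 E16.5 libraries come first and the others follow by age. Col2a1 was at 11621, 33185, 28536 and 22981 CPM in stroma and at 0.143, 0.355, 0.432, 1.62 and 11.8 CPM in HPs. Col4a1, a basement membrane chain, was at 191, 203, 269 and 260.5 CPM in stroma and at 3.72, 0.532, 2.53, 2.49 and 0.811 CPM in HPs. The groups did not overlap for any of these genes, which are among those chosen by their level in stroma. The share of all genes without overlap is not given here. Among HP libraries the adult one was highest for Col2a1. By edgeR's quasi-likelihood test with stage as a block, Col1a1 was higher in stroma by 11.68 ± 0.57 on the log2 scale (SE; 4 against 5 libraries; adjusted p = 1.91e-05), Col2a1 by 14.44 ± 1.30 (adjusted p = 0.000172) and Col4a1 by 7.02 ± 0.64 (adjusted p = 0.000184). In all, 41 of the 44 genes were higher in stroma, where 32.0% of all 18407 genes tested were, and 0 were lower, where 25.8% of all genes were. At an unadjusted p under 0.05, edgeR also placed 0 collagen genes lower. Of the 41, 40 passed whichever library was left out, Col28a1 being the exception, and no share of all genes is given for that count. The median log2 difference was 8.81 over the collagen genes and 0.05 over all genes. Nothing in the sources used here says that the libraries came from separate sets of animals beyond the pools, so these p-values measure the spread between libraries.

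The 3 genes that did not pass were Col4a3, a chain of specialised basement membranes (log2 difference 3.47 ± 1.48, adjusted p = 0.0819 by edgeR), Col7a1, the anchoring fibril chain (0.57 ± 0.45, adjusted p = 0.308), and Col23a1, a transmembrane collagen (1.18 ± 0.45, adjusted p = 0.0589). Col7a1 lay at 1.39, 1.56, 0.934 and 0.446 CPM in stroma and 2.36, 1.67, 0.617, 0.588 and 0.253 CPM in HPs, so that the ranges overlapped. Col24a1, a fibrillar chain found in bone, had 0 UMIs in all 5 HP libraries. Against a floor of 3 UMIs over those libraries together, its stromal level of 8.19 CPM was at least 987-fold higher. Part of the adult HP signal sat in 1 HP cluster of 56 cells with the deposited code Stroma, which held 86.4% of that library's Col2a1 UMIs (601 of 696), 80.4% of its Col11a1 and 62.1% of its Col1a1 UMIs.

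Col5a1, a chain of the type V collagen that starts type I fibrils, was the member with the highest level in an HP library. It was at 241, 313, 357 and 275 CPM in stroma and at 0.429, 0.303, 8.17, 24.5 and 10.5 CPM in HPs, and passed at 6.08 ± 1.03 (adjusted p = 0.00253 by edgeR). In the P0 HP library, 65.8% of its UMIs came from the cluster EryP1, at 119 CPM (114 to 125; 2055 UMIs), and 26.7% from MegP1 at 50.9 CPM. The E18.5 cluster EryP/MegP held 91.9% of that stage's HP UMIs at 53.8 CPM, and the adult cluster EryP2 89.0% at 42.7 CPM. In these 4 clusters the partner chain Col5a2 was at 0.122 CPM or less and Col1a1 at 0.290 CPM or less. Klf1, an erythroid transcription factor, was at 66.0 to 164 CPM there.

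**Figure D1:**
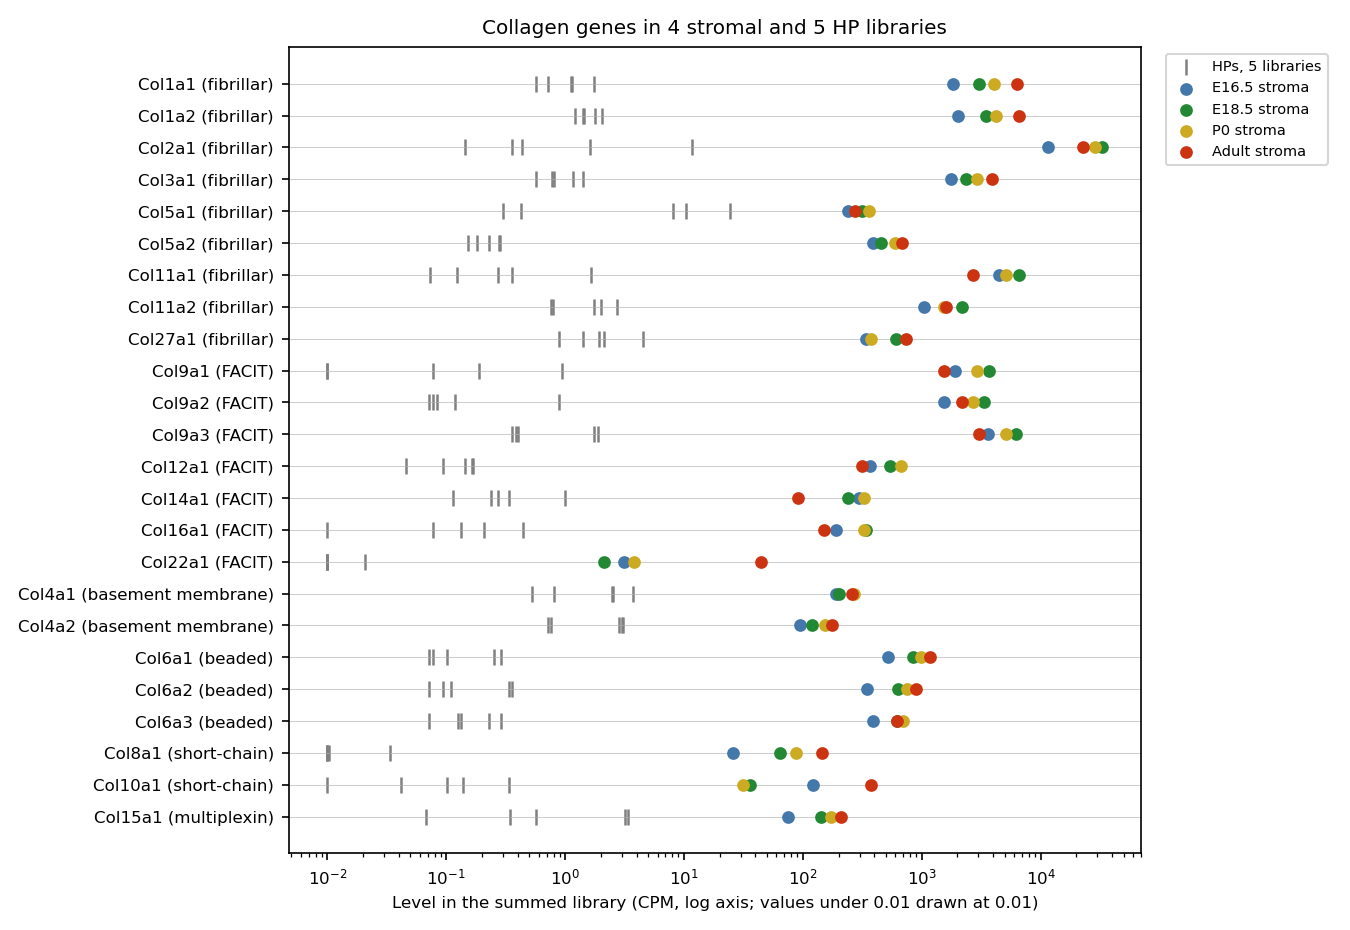
Level of the 24 collagen genes with values per sample in each library, on a log axis of CPM. Dots are the 4 stromal libraries coloured by stage, ticks are the 5 HP libraries, and values under 0.01 CPM are drawn at 0.01. The stromal dots lie above the HP ticks for all 24 genes, with Col2a1 as the highest and Col5a1 with the highest HP ticks. The 24 genes were chosen by their level in stroma, so this separation is partly set by that choice. The share of all genes that separate in this way is not given here, so the separation cannot be read as particular to collagens. Col7a1, outside the 24, did overlap.

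Among the fibrillar chains, those of type I and type III were highest in the adult, and those of type II and XI at E18.5. Col1a1 (chr11:94936224-94953042, GRCm38) was lowest at E16.5 and highest in the adult, where its level was 3.47-fold (95% exact interval 3.45 to 3.49) that at E16.5. Col1a2 was at 2011, 3467, 4194 and 6571 CPM and Col3a1, the chain of type III collagen in soft tissue and vessel walls, at 1771, 2361, 2921 and 3902 CPM. All 3 were higher at each later stage. Their highest clusters included bone, tendon and fibroblast clusters, with Col1a1 at 38498 CPM in the osteoblast-like adult cluster Osteo, at 28214 CPM in the tendon-like adult cluster F12 and at 16769 CPM in E18.5 F3ii, which the markers did not name. Col3a1 was highest in the fibroblast-like adult cluster F8 at 12525 CPM and was at 6527 CPM in Osteo.

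Col2a1 (chr15:97975602-98004724, GRCm38) peaked at E18.5, 2.86-fold (95% exact interval 2.85 to 2.86) above E16.5, and its adult level was 1.98-fold that at E16.5. Col11a1, whose chain joins type II in cartilage fibrils, was at 4461, 6633, 5099 and 2700.2 CPM and its partner Col11a2 at 1044, 2186, 1537 and 1615 CPM. Both were highest at E18.5, and Col11a1 was lowest in the adult. Col27a1, another cartilage fibrillar chain, was at 343, 605, 377 and 741 CPM, with the adult highest. The 3 highest clusters for Col2a1 were E18.5 C2ii at 72045 CPM, P0 C2ii at 68580.1 CPM and the hypertrophic chondrocyte-like adult C10 at 65486 CPM, and C10 also had the most Col11a2 (5291 CPM) and Col27a1 (2116 CPM). Col5a1 and Col5a2, which start type I fibrils, were at 241, 313, 357 and 275 CPM and at 387, 453, 599.5 and 680.4 CPM in stroma.

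The FACIT genes differed in their stage order. Col9a1, Col9a2 and Col9a3, the chains of the type IX collagen on cartilage fibrils, had the stage order of Col2a1 up to birth, with Col9a1 at 1913, 3691, 2908 and 1528 CPM, Col9a2 at 1553, 3376, 2710.3 and 2174 CPM and Col9a3 at 3604, 6256, 5090.4 and 3049 CPM. Each was highest at E18.5, and Col9a1 and Col9a3 were lowest in the adult. Col12a1 and Col14a1, found on type I fibrils of tendon and dense tissue, were at 364, 538, 665 and 313 CPM and at 295, 241, 326 and 90.4 CPM, and both were highest at P0 and lowest in the adult. Col14a1 was 3.60-fold lower in the adult than at P0, while Col1a1 was 1.56-fold higher in the same pair. Their highest clusters were the tendon-like P0 F5 for Col14a1 (914 CPM) and P0 F2 for Col12a1 (1476 CPM, with 1472 CPM in F5).

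Col16a1 was at 189.9, 339.8, 327 and 152 CPM, again lowest in the adult. Col22a1, a FACIT chain known from tissue junctions such as that of muscle and tendon, was highest in the adult library, at 3.1, 2.14, 3.79 and 44.6 CPM, and its adult level was 14.4-fold (95% exact interval 12.9 to 16.0) that at E16.5. It was concentrated in adult F11 (677 CPM) and F13 (462 CPM), and 81.4% of its stromal UMIs came from its 5 highest clusters. The highest perinatal cluster, the tendon-like P0 F5, reached 74.0 CPM.

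The network and filament chains had vascular, fibroblast and cartilage sources. Col4a1 and Col4a2, which form the common basement membrane network, stayed between 191 and 269 CPM and between 94.4 and 176 CPM over the 4 stages. Col4a1 was highest in the endothelial-like clusters, coded ECs, at 1278, 2889.8 and 2323 CPM in the perinatal libraries by age. The adult clusters coded AECs and SECs, which held 2 and 0 endothelial markers among their 10 leading genes and so were not named here, had 2030.0 and 1322 CPM. Col15a1, a multiplexin of vessel and muscle basement membranes, was at 74.8, 142, 173 and 209 CPM and highest in E18.5 ECs at 521 CPM.

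Col6a1, Col6a2 and Col6a3, the chains of the beaded filaments around cells, were at 523, 852, 981 and 1176 CPM, at 347, 634, 758 and 904 CPM and at 389.9, 625, 696 and 623 CPM. The first 2 were higher at each later stage, and Col6a3 was highest at P0. Their highest clusters were P0 C2ii for Col6a1 (2015 CPM) and Col6a2 (1828 CPM) and E18.5 F3ii for Col6a3 (1569.6 CPM). Col8a1, a short-chain network collagen of vessels, was at 26.1, 64.3, 87.1 and 145 CPM, 5.56-fold (95% exact interval 5.35 to 5.79) higher in the adult than at E16.5, and its highest cluster was the CAR-like adult cluster CARs at 859.9 CPM, ahead of Osteo at 567 CPM.

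The 20 genes below these levels reached at most 83.7 CPM in a stromal library (Col5a3, adult) and at most 420.0 CPM in a cluster (Col18a1, adult F11), and several had their highest level in the same cluster. Col20a1 and Col28a1 were highest in the clusters coded Schwann, Col20a1 at 169, 144 and 146 CPM in the 3 perinatal libraries and Col28a1 at 23.4, 76.7 and 51.2 CPM. Col13a1, Col24a1, Col8a2 and Col6a5 were highest in adult Osteo, at 149, 49.7, 195 and 13.0 CPM. Col4a5 and Col4a6, the chains of a further basement membrane network, were both highest in P0 UD4, at 182 and 58.5 CPM. Col7a1 and Col23a1 shared E16.5 F6, at 43.0 and 60.6 CPM. The lowest member, Col6a4, did not pass 0.144 CPM in any stromal library.

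Col10a1 (chr10:34389981-34397085, GRCm38), the chain of type X collagen and a marker of hypertrophic cartilage, had the largest share of its UMIs in its 5 highest clusters among the 24 genes. It was at 122, 35.9, 31.5 and 372 CPM, so that the E16.5 and adult libraries were both above the 2 around birth, and 85.9% of its UMIs came from 5 of the clusters. The hypertrophic chondrocyte-like cluster C5 held 98.8%, 91.2% and 88.8% of the UMIs of the perinatal libraries, by age, at 984, 296 and 194 CPM. In the adult, C10 held 58.7% at 1459 CPM, the articular cartilage-like cluster F9 29.9% at 816 CPM and Osteo 6.77% at 413 CPM. Within each of these 6 clusters the median cell had 0 Col10a1 UMIs and the 5% of cells with the most held 80.7% to 99.4%, so a cluster's level came from few cells. Cells over 1000 CPM were 11.2% of E16.5 C5, 7.87% of adult C10, 7.64% of F9, 4.49% of E18.5 C5 and 1.79% of P0 C5. Ihh, a signal made by prehypertrophic chondrocytes, was at 137 CPM in C10, 173 in E16.5 C5, 237 in E18.5 C5 and 80.7 in P0 C5, but at 3.26 in F9, where Prg4, the lubricin of joint surfaces, reached 38253 CPM.

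Sequence upstream of the start was looked at for chains that moved together over clusters (type IX, and types I and III) and for those with their own pattern (Col10a1, Col6a1, Col8a1). RefSeq promoter sequences of GRCm38.p6 were at hand for 35 of the 44 genes, and Col1a1, Col2a1, Col4a3, Col5a2, Col9a3, Col12a1, Col14a1, Col22a1 and Col26a1 had no entry. The 100 bases that end just before the annotated start are printed 5′ to 3′ on the strand of the gene, and capitals mark the letters TATAAA, the letters CCAAT and the letters GGGCGG where they were found on either strand. They are shown because Col9a1 and Col9a2 had an r of 0.99 over clusters and because Col10a1 was held by few cells. Col9a1 lies at chr1:24177489-24177588 (plus strand), Col9a2 at chr4:121039466-121039565 (plus strand), Col1a2 at chr6:4505518-4505617 (plus strand), Col3a1 at chr1:45311438-45311537 (plus strand), Col10a1 at chr10:34389881-34389980 (plus strand), Col6a1 at chr10:76726045-76726144 (minus strand) and Col8a1 at chr16:57754738-57754837 (minus strand), and these windows overlap no annotated exon of the gene.
Col9a1: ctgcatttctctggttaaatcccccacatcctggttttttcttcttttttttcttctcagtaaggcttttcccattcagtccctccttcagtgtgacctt
Col9a2: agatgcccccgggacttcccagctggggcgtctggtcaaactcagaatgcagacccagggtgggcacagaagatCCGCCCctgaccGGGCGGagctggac
Col1a2: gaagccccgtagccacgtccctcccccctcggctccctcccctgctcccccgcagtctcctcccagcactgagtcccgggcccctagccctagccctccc
Col3a1: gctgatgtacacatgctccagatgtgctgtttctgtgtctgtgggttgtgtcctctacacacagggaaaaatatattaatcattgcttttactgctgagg
Col10a1: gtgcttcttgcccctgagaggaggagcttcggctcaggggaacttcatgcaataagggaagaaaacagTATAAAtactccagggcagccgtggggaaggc
Col6a1: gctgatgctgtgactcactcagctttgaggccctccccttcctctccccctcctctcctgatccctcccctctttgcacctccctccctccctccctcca
Col8a1: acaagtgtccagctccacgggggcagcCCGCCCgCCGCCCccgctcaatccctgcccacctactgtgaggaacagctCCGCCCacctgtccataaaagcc

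Over the 250 bases before the start and on both strands, with 38 annotated starts for the 35 genes, TATAAA was found in 5 of them (Col10a1, Col11a2, Col13a1, Col17a1 and Col3a1) and in 12.4% of all 32851 promoter sequences. CCAAT was found in 13 of 35 genes against 33.8% of all, and GGGCGG in 21 of 35 against 32.7%. A TATAAA between 40 and 18 bases before the start on the strand of the gene was found in Col10a1 alone, 32 bases before it, and in 1.94% of all promoters. The printed Col9a1 window holds none of these letters and that of Col9a2 holds GGGCGG on both strands. GC content was 42% and 66% in that pair, 74% in Col1a2, 43% in Col3a1, 54% in Col10a1, 63% in Col6a1 and 67% in Col8a1. A match of letters is a description of the sequence and no evidence of binding.

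Chains of one protein mostly went together over the 65 clusters of at least 50 cells. Pearson's r of log2(CPM + 10) was 0.99 for Col9a1 with Col9a2 and with Col9a3, 0.99 for Col6a1 with Col6a2, 0.98 for Col4a1 with Col4a2, and 0.95 for Col1a1 with Col1a2 and for Col11a1 with Col11a2. These clusters share 4 libraries, their depth and their free RNA, so r is given as a description. Over all 276 pairs of the 24 genes the median r was 0.24, and the lowest was -0.65 for Col4a1 with Col11a2. Col6a1 and Col6a2 kept a UMI ratio of 1.06 to 2.19 in clusters where at least 1 of the pair passed 200 CPM, and Col4a1 to Col4a2 a ratio of 1.00 to 3.07. Col1a1 to Col1a2 spanned 0.136 in E18.5 C7 to 1.79 in adult P1, with a median of 0.880. Col5a1 went with Col5a2 (r 0.94) but less with Col5a3 (r 0.53), which had an r of 0.50 with Col5a2. Type VIII chains were also less tied, with an r of 0.72 and a ratio of Col8a1 to Col8a2 from 1.86 in F12 to 69.7 in CARs.

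Between proteins, Col2a1 went with Col9a1 (r 0.96) and Col11a1 (r 0.90), and Col1a1 with Col3a1 (r 0.92) and Col5a1 (r 0.89). Col1a1 and Col2a1 had an r of -0.17, and their UMI ratio ran from 0.0035 in E16.5 C4 to 183 in adult F12. Col2a1 was the first collagen in 40 of the 65 clusters, Col1a1 in 10 and Col3a1 in 9, with Col4a1 first in E18.5 ECs, AECs and SECs and Col1a2 first in E18.5 F3ii, CARs and F12. Among 4589 other genes, those most like Col1a1 over the 65 clusters were Thbs2 (r 0.94), Aspn (0.87), Lox (0.86), Creb3l1 (0.86) and Fkbp7 (0.84). For Col2a1 they were Cnmd (0.97), Hapln1 (0.96), Ucma (0.94), Wwp2 (0.94) and 3110079O15Rik (0.93), and for Col4a1 Lamc1 (0.89), Lamb1 (0.87), Filip1l (0.86), Tax1bp3 (0.86) and Sh3bgrl (0.85). Col6a1 was most like Bgn (0.86), Lrp1 (0.84), Loxl2 (0.84), Slc39a13 (0.83) and Dse (0.83). Col10a1 was most like Ihh (0.82), Sgms2 (0.78), Panx3 (0.76), Smpd3 (0.75) and Slc8a3 (0.72).

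**Figure D2:**
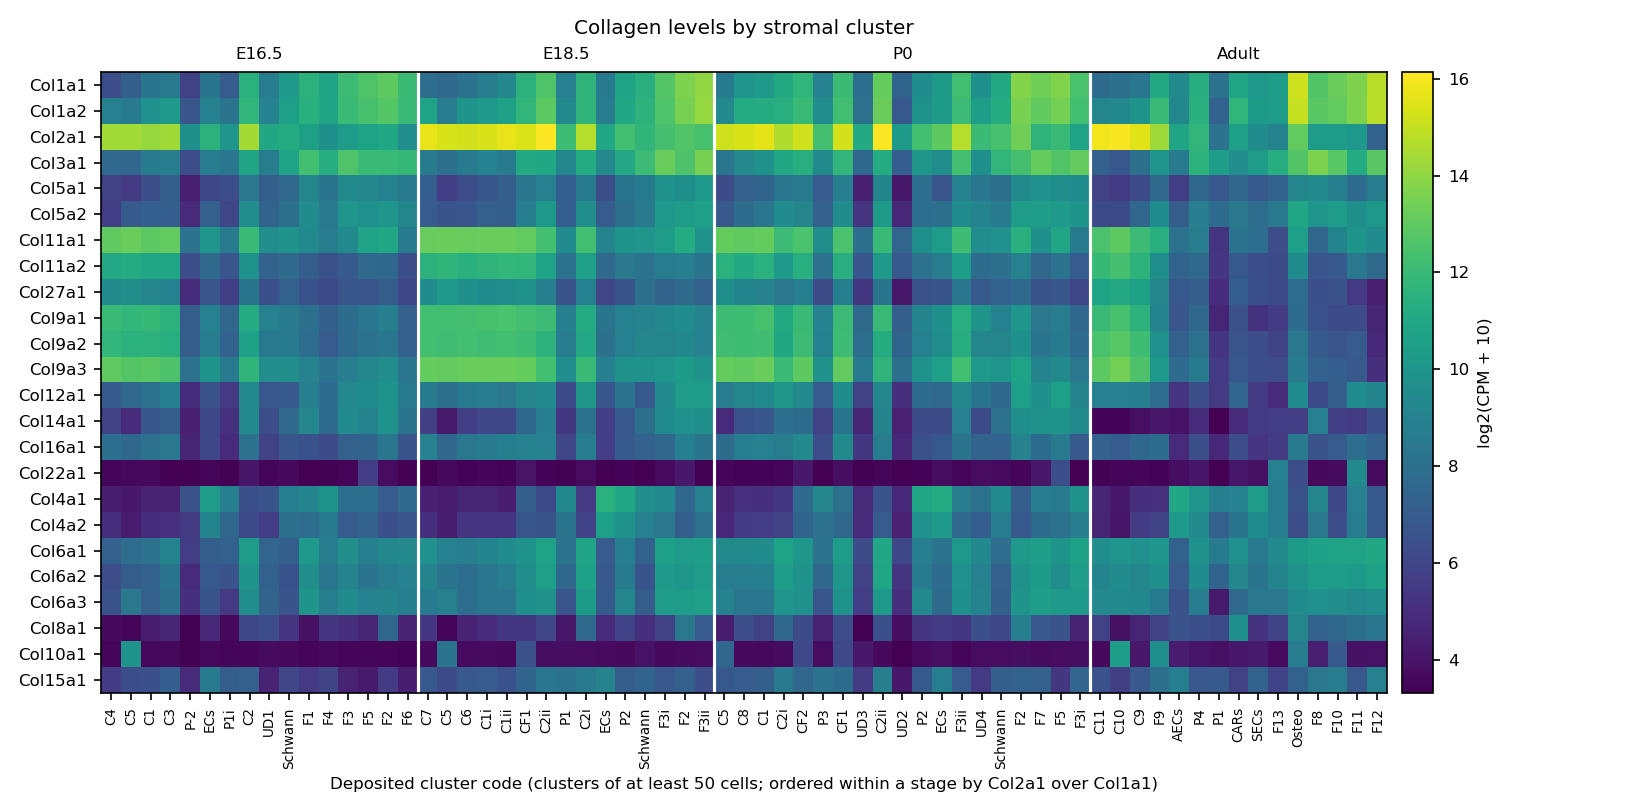
Level of the 24 collagen genes in the 65 stromal clusters of at least 50 cells, as log2(CPM + 10). Columns are clusters grouped by stage and ordered within a stage by Col2a1 over Col1a1, and rows are genes grouped by subfamily. Type II, IX and XI chains are high on one side of each stage and type I, III and V chains on the other, while Col10a1 and Col22a1 are high in few clusters.

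**Figure D3:**
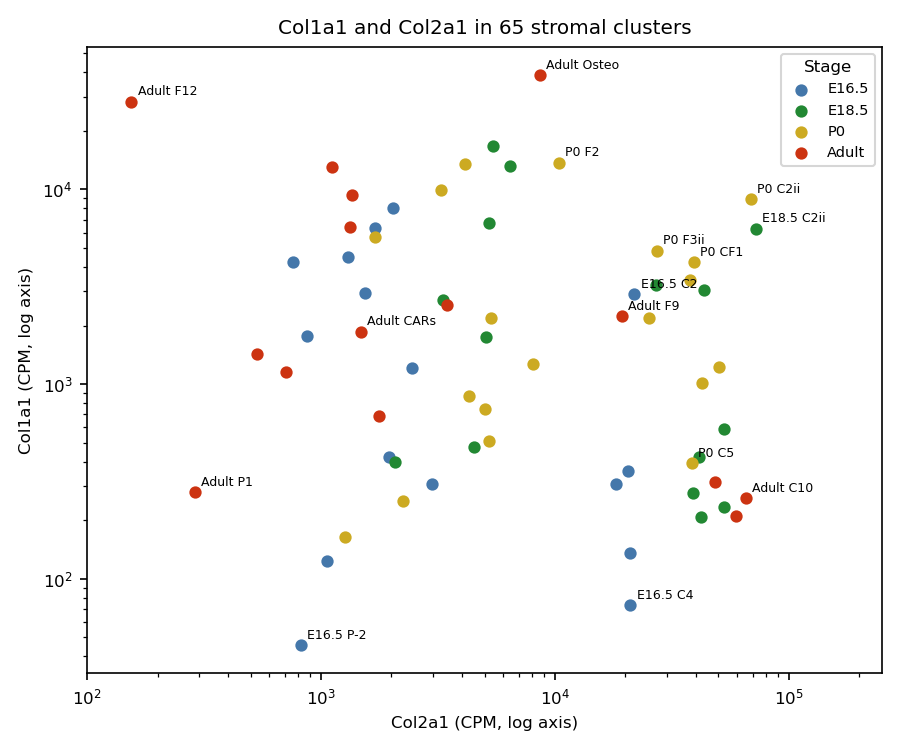
Col1a1 against Col2a1 in CPM for the 65 stromal clusters, both axes logarithmic, coloured by stage. The ratio of Col1a1 to Col2a1 runs from 0.0035 to 183, and the C2ii clusters of E18.5 and P0 are high for both genes.

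Cluster C2ii of E18.5 and P0, led by 1520401A03Rik, Itgbl1, Pax1, Barx1 and Lgr6 and given no name by the markers, was high for both fibril types. Collagens took 11.6% and 11.4% of its UMIs, the largest shares of all clusters, with Col2a1 at 72045 and 68580.1 CPM and Col1a1 at 6292 and 8934 CPM. To ask whether single cells held both, each cell was thinned to 1000 UMIs and scored for at least 10 type I UMIs and at least 20 Col2a1 UMIs. Both were met by 39.8% of the 339 E18.5 C2ii cells (95% exact binomial interval 34.6% to 45.3%) and by 42.5% of the 621 P0 C2ii cells (38.6% to 46.5%), and by 9.27% of E16.5 C2. In the skeletal muscle-like clusters the share was 0% to 0.688%, and it was 2.54% in P0 ECs. Col2a1 there is on average well below the limit of 20 in 1000 UMIs. Those clusters thus cannot give the background of stray type I in cells rich in Col2a1. In the other E18.5 and P0 clusters coded C and a number, the share ran from 0.75% in E18.5 C5 to 10.2% in E18.5 C2i. It was 15.2% in P0 F3ii. The median cell had 15335 UMIs in E18.5 C2ii and 16439 in P0 C2ii, against 15590.5 and 13612.5 in their libraries.

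Over all stromal cells the share with both was 1.27%, 5.56%, 11.1% and 1.72% (1.13%, 4.82%, 9.59% and 1.56% without thinning). Thinning left out 32, 168, 1471 and 33 cells under 1000 UMIs, most of them at P0. The thin P0 clusters CF1 and CF2, with medians of 2367 and 516 UMIs per cell, had 47.3% and 37.9% of cells with both, or 36.8% and 29.3% without thinning. These are shares of the 1056 of 1095 CF1 cells and the 116 of 1098 CF2 cells with at least 1000 UMIs. Type I was met by 16.8%, 24.9%, 32.5% and 35.4% of cells and Col2a1 by 23.4%, 61.6%, 53.2% and 20.2%. The part of doublets or free RNA in these shares was not tested.

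The level of cartilage chains in clusters of other cell types was used as a background. In the skeletal muscle-like clusters Col2a1 lay at 9.12%, 13.6%, 18.3% and 1.25% of its library level. There the Col9a1 to Col2a1 ratio was 0.168, 0.101, 0.0975 and 0.0536, against 0.165, 0.111, 0.102 and 0.0665 in the whole libraries, and the Col11a1 to Col2a1 ratio was 0.355, 0.157, 0.154 and 0.0982 against 0.384, 0.200, 0.179 and 0.117. In the endothelial-like clusters of the perinatal libraries Col2a1 lay at 25.6%, 6.25% and 28.1% of its library level, with a Col9a1 to Col2a1 ratio of 0.161, 0.149 and 0.106. Col4a1 was at 168% to 307% of its library level in the muscle-like clusters. Levels of Col2a1 at or below 28.1% of the library level, the share in P0 ECs, are not read as expression here. Whether clusters under this limit hold low expression of their own was not tested. This limit is the highest share among the clusters taken as background, so those clusters fall under it by choice. It takes in 15 of the 40 clusters where Col2a1 was the first collagen, all of them coded as P, ECs, Schwann or UD clusters. The same limit is used for all stages, and adult P4, at 15.0%, lay above the adult muscle-like share of 1.25%. Not all clusters under the limit had chain ratios near those of their library. The Col11a1 to Col2a1 ratio was 0.334 in adult SECs against 0.117 in the library. In E16.5 UD1 the Col9a1 to Col2a1 ratio was 0.254 against 0.165. Whether this background came from free RNA or from doublets was not tested.

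Stage differences were counted as at least 2-fold in CPM with at least 50 UMIs in the higher library, which 42 or 43 of the 44 genes could meet. With 1 library per stage this is a size and not a test, and the 3 comparisons with E16.5 share that library. At E18.5, 4 collagen genes were higher than at E16.5 (Col2a1, Col8a1, Col9a2 and Col11a2), where 2.37% of all genes were, and 2 were lower (Col10a1 and Col26a1), where 4.01% were. At P0, 6 were higher (Col1a1, Col1a2, Col2a1, Col6a2, Col8a1 and Col15a1; 6.15% of all genes) and 1, Col10a1, was lower (3.09%). In the adult, 17 were higher than at E16.5 (22.4% of all genes) and 9 lower (13.4%). The median log2 difference was 0.31, 0.56 and 0.68 over the collagen genes and -0.01, -0.04 and 0.12 over all genes. Just outside the limit lay Col18a1 and Col2a1, at just under 2-fold and 1.98-fold in the adult against E16.5.

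Adult stroma differed from P0 in single genes and in both directions, with 6 higher (17.6% of all genes were) and 10 lower (11.0%). The 6 were Col10a1 (11.8-fold), Col22a1 (11.7-fold), Col13a1, a transmembrane collagen (6.04-fold), and the low genes Col4a3, Col4a4 and Col6a5. Col4a3 rested on 181 adult and 27 P0 UMIs. The 10 lower genes included Col12a1 (2.13-fold), Col14a1 (3.60-fold), Col16a1 (2.15-fold), Col25a1 (6.53-fold) and Col6a6 (4.85-fold), with Col9a1 (1.90-fold) and Col11a1 (1.89-fold) just under the limit. Trimmed-mean (TMM) scaling moved the median of all genes from 0.17 to 0.04 on the log2 scale and gave 6 higher and 14 lower. The shares above are for CPM, and none is given for TMM, so the TMM counts have no background beside them.

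Within classes of clusters with the same marker name, the chains differed between stages in other ways than in the whole libraries. In hypertrophic chondrocyte-like clusters (C5 before adulthood and C10 in the adult; 662, 401, 1116 and 381 cells), Col2a1 was at 20926, 42085, 38487 and 65486 CPM, Col11a1 at 9309.9, 9507, 8961 and 7942 CPM and Col6a1 at 232, 483, 659 and 1026 CPM. Col2a1 and Col6a1 were highest in the adult there, and Col11a1 spanned the least. The median cell of each of these clusters had 0 Col10a1 UMIs, so most cells of the class did not show type X collagen mRNA. The chondrocyte-like C1 was named at 2 stages, with Col2a1 at 18296 CPM at E16.5 and 50469.7 CPM at P0 and Col11a1 at 7718 and 8925 CPM.

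In fibroblast-like clusters (F3, F3i, F7 and F8; 606, 764, 1351 and 1125 cells), Col1a1 was at 4476, 6730.4, 9966 and 6412 CPM and Col3a1 at 6161, 9259, 8899.9 and 12525 CPM. The adult F8 thus had the most Col3a1 but less Col1a1 than P0 F7. Col12a1 was at 645, 685, 842 and 63.8 CPM in this class. In tendon-like clusters (F5, F2, F5 and F12; 285, 696, 377 and 160 cells) Col1a1 was at 6316, 13138, 13509.9 and 28214 CPM and Col14a1 at 520.3, 897, 914 and 76.1 CPM, so that the adult cluster was highest for the fibril and lowest for the FACIT chain. Col2a1 in that class was at 1696, 6441, 4109 and 154 CPM, under the limit given above, which comes from the P0 library. At E18.5 it lay above the skeletal muscle-like P1 (4502 CPM) and the pericyte and smooth muscle-like P2 (5069 CPM) of that library. Whether the E18.5 level holds expression by tendon-like cells was not tested. The E18.5 part of the class is F2, which shared 3 and 4 of its leading genes with F2 of E16.5 and of P0. Those 2 clusters were not named and had Col1a1 at 7991 and 13723 CPM, so the class need not hold the same cells at each stage. The adult part of the class is F12 alone. Adult F11 (396 cells), with Tnmd and Scx among its leading genes, fell short of the naming limit. Its Col1a1 was at 13060 CPM, so the adult rise of Col1a1 in this class rests on which cluster was named.

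Pericyte and smooth muscle-like clusters (F4, P2, P2 and P4) had Col4a1 at 983, 1988, 1874 and 1036 CPM and Col3a1 at 2531, 2091, 1103 and 3114 CPM, and skeletal muscle-like clusters (P1i, P1, P3 and P1) had Col4a1 at 432, 622, 602 and 439 CPM. The basement membrane chain was above its library level in each of these clusters. In the adult CAR-like cluster (359 cells), Col1a2 was at 3446 CPM, Col1a1 at 1858 CPM, Col8a1 at 859.9 CPM and Col4a1 at 506 CPM. CARs stood out by Col8a1, whose next cluster was at 567 CPM. Clusters with the same code at different stages were alike in some cases and not in others. Of 21 such pairs, 13 shared at least 6 of their 10 leading genes, with 9 for P2 and 6 for C2ii, and 8 shared at most 4, with 3 or 4 for F2, 2 for F3i, 1 for P1 and 0 for F3ii.

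**Figure D4:**
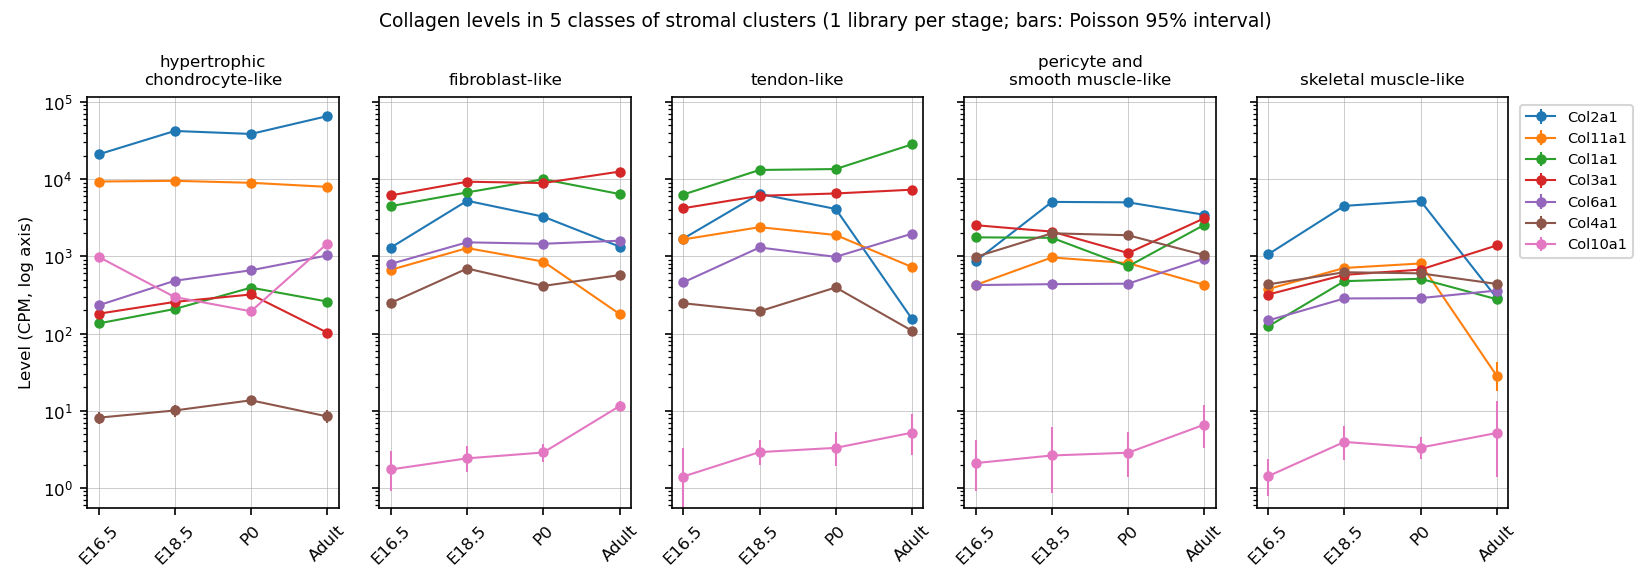
Level of 7 collagen genes by stage in 5 classes of clusters with the same marker name, in CPM on a log axis with exact Poisson 95% intervals. Each panel is a class and each line a gene, with 1 library per stage. Col2a1 and Col6a1 are highest in the adult in the hypertrophic chondrocyte-like panel, and Col1a1 is highest in the adult in the tendon-like panel. The adult tendon-like point is cluster F12 alone.

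Surface antibodies gave a view of the same cells that did not use their mRNA. CD140a (PDGFRA), a marker of mesenchymal progenitors and fibroblasts, was scored positive at a centred log-ratio over 1 within each library, which took 27.5%, 14.3%, 16.6% and 18.6% of cells. Pdgfra mRNA was higher on the positive side in each library, at 141 against 25.8 CPM at E16.5 and 183 against 72.1 CPM in the adult. Col3a1 was at 4514 against 858, 7988 against 1468, 6717 against 2012 and 7984 against 2870.4 CPM, positive against negative, and Col2a1 at 2436 against 14678, 10227 against 36826, 11421 against 32632 and 9990.3 against 26266 CPM. Col1a1 was at 4385 against 992, 9173 against 2092, 6793 against 3430.1 and 8633 against 5814 CPM. Col3a1 and Col1a1 were higher and Col2a1 lower on the positive side of all 4 libraries.

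By edgeR with library as a block, 15 of the 44 genes were higher in CD140a-positive cells, where 12.9% of all genes were, and 11 were lower, where 16.6% were. Among those higher were Col3a1 at 1.86 ± 0.17 on the log2 scale (SE; positive and negative cells of 4 libraries; adjusted p = 0.00387), Col5a1 at 1.34 ± 0.16 (adjusted p = 0.00621), Col1a1 at 1.31 ± 0.29 (adjusted p = 0.0253) and Col14a1 at 1.53 ± 0.12 (adjusted p = 0.00328). Those lower included each of the 6 type II, IX and XI chains, with Col2a1 at -1.99 ± 0.21 (adjusted p = 0.00497), Col9a3 at -1.97 and Col11a1 at -1.71 ± 0.15 (adjusted p = 0.00353), besides Col27a1, Col16a1, Col19a1, Col20a1 and Col25a1. Of the type VI chains, Col6a2 (0.48), Col6a3 (0.63), Col6a5 (2.31) and Col6a6 (2.34 ± 0.18) were higher, and Col6a1 was at 0.37 (adjusted p = 0.0579), in the same direction. The Col1a1 and Col1a2 calls were lost without any 1 of the 3 perinatal libraries, which left 5 genes higher without E16.5, 4 without E18.5 and 4 without P0. Whichever library was left out, 13 genes passed, Col2a1, Col3a1, Col5a1, Col6a6 and Col14a1 among them. No share of all genes is given with a library left out, so these counts cannot be read as particular to collagens.

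The sides of the gate differed in their clusters. Cells with codes made of C and a number, which include most cartilage clusters but not the articular cartilage-like adult F9 (916 cells, 14.6% of that library), and which leave out CARs, CF1 and CF2, were 6.32%, 9.69%, 11.5% and 6.85% of positive and 66.9%, 70.1%, 49.4% and 19.9% of negative cells. In a comparison added after seeing the data that kept only cells with codes beginning with F, adult F9 with its Col2a1 of 19359 CPM among them, Col6a6 (0.90 ± 0.05 SE, adjusted p = 0.00865 by edgeR) and Col5a3 (0.85, adjusted p = 0.0415) stayed higher, where 1.16% of all genes were, and Col25a1 and Col22a1 were lower (0.799%). Col3a1 was then at 0.47 (adjusted p = 0.0731), Col2a1 at -0.66 (adjusted p = 0.257) and Col1a1 at -0.080 (adjusted p = 0.78), so that its direction turned. The direction also turned for Col1a2 (-0.013), Col6a2 (-0.035), Col6a3 (-0.048) and Col18a1 (-0.11), none of which passed there.

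Sca-1, a marker of adult mesenchymal progenitors and of arterial endothelium, took 10.4%, 10.0%, 9.90% and 20.3% of stromal cells. Col3a1 was at 3043 against 1615, 5549.6 against 1953, 5808 against 2537 and 7464 against 3044 CPM, positive against negative, and Col2a1 at 8419 against 12013, 21807 against 34640.2, 18046 against 29928 and 7413 against 26733 CPM. The sides did not cross in any library, and the gap in Col2a1 was widest in the adult. By edgeR with library as a block, 9 of 44 genes were higher (10.2% of all genes) and 12 lower (7.45%). Higher genes included Col3a1 (1.11 ± 0.09 SE, adjusted p = 0.00197), Col5a1 (0.76 ± 0.08, adjusted p = 0.003), Col5a3 (1.86 ± 0.17, adjusted p = 0.00238) and Col6a6 (1.77 ± 0.19, adjusted p = 0.0032), and these 4 passed whichever library was left out. At an antibody level of 0.75 in place of 1, Col3a1 (0.68, adjusted p = 0.0956 by edgeR), Col5a1 (0.39, adjusted p = 0.14) and Col6a6 (1.29, adjusted p = 0.124) no longer passed. Col5a3 and Col8a2 were the only calls kept at 0.75. At a level of 1.5 all 21 calls were kept, with 10 genes higher and 14 lower. The share of all genes at these levels is not given here. Lower were all 6 type II, IX and XI chains (Col2a1 -1.05 ± 0.24, adjusted p = 0.0324, but 0.173 by DESeq2) and both type VIII chains, Col8a1 (-0.31 ± 0.07, adjusted p = 0.0264) and Col8a2 (-0.49, adjusted p = 0.0165). Col1a1 stood at 0.35 (adjusted p = 0.27).

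The Sca-1 calls for type II, IX and XI chains were all lost without any 1 of the 3 perinatal libraries. There were 0 genes lower without E18.5 or without P0 and 4 without E16.5 (Col8a2, Col16a1, Col19a1 and Col25a1). No share of all genes stands beside the Sca-1 counts with a library left out, so they cannot be read as particular to collagens. Codes made of C and a number were 33.4%, 29.5%, 19.8% and 4.09% of positive and 52.2%, 65%, 45.7% and 20.9% of negative cells. With only F codes (added after seeing the data; 3.76% of all genes higher, 2.96% lower), Col3a1 (0.42, adjusted p = 0.0278 by edgeR), Col5a3 (1.04, adjusted p = 0.000839) and Col6a6 (0.99, adjusted p = 0.0249) were higher. Lower there were Col8a1 (-0.89), Col8a2 (-1.01), Col13a1 (-1.43), Col15a1 (-0.69), Col22a1 (-0.94) and Col24a1 (-1.17).

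CD31 (PECAM1), an endothelial surface protein, took 9.04%, 6.65%, 10.8% and 19.7% of cells. Col4a1 was at 316 against 177, 759 against 161, 596 against 223 and 700.1 against 174 CPM, positive against negative, and Col4a2 at 147 against 88.6, 379 against 99.6, 309 against 131 and 432 against 125 CPM, higher on the positive side in all 4 libraries. By edgeR, 3 of the 43 genes tested were higher (3.53% of all genes), namely Col4a1 (1.47 ± 0.21 SE, adjusted p = 0.0186), Col4a2 (1.27 ± 0.18, adjusted p = 0.0182) and Col18a1, a multiplexin of vessel basement membranes (1.08 ± 0.20, adjusted p = 0.0373). Lower were 2 (1.01%), Col8a1 (-0.42 ± 0.06, adjusted p = 0.016) and Col20a1 (-1.08 ± 0.21, adjusted p = 0.045). No call held without E18.5, without P0 or at an antibody level of 0.75, and at a level of 1.5 there were 5 genes higher and 22 lower. The share of all genes at 1.5 is not given here, so these counts cannot be read as particular to collagens. Cells coded ECs, AECs or SECs were 9.54%, 19.9%, 13.6% and 47.2% of the positive side and at most 0.238% of the negative side. Without them, in a comparison added after seeing the data, Col4a1 was at 0.82 (adjusted p = 0.116) and Col4a2 at 0.66 (adjusted p = 0.103), and 0 collagen genes were called higher or lower, where 0.0243% and 0.0% of all genes were.

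**Figure D5:**
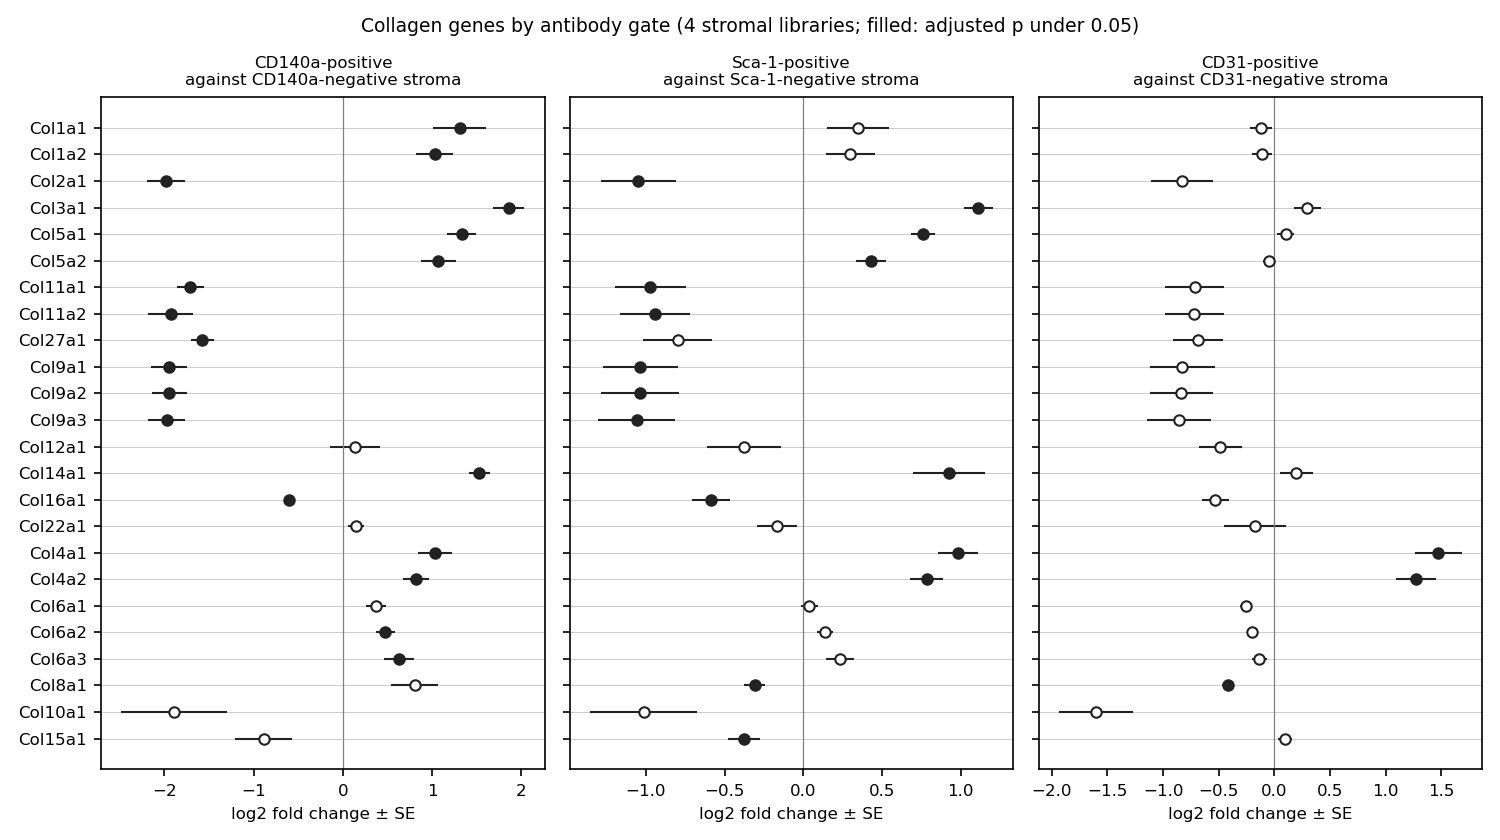
Log2 difference of collagen genes between antibody-positive and antibody-negative stromal cells of the same libraries, for CD140a, Sca-1 and CD31, with SE bars from edgeR over 4 libraries. Filled points have an adjusted p under 0.05. Type II, IX and XI chains lie at the low end for CD140a and Sca-1, and Col4a1 and Col4a2 at the high end for CD31.

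Genes that make, process, bind or sense collagen were counted beside the chains. Of 33 synthesis, processing and crosslinking genes tested, 32 were higher in stroma than in HPs and 0 lower, as were 8 of 8 collagen-binding small leucine-rich proteoglycans, beside 32.0% of all genes higher and 25.8% lower. Of 9 collagen receptor genes, 7 were higher and 1 was lower, Lair1, an inhibitory receptor of blood cells (-9.61 ± 0.75 SE, adjusted p = 9.69e-05 by edgeR). Across the CD140a gate the synthesis genes were divided, with 7 higher and 18 lower, beside 12.9% and 16.6% of all genes. The higher ones included the type I and III propeptide enzyme Adamts2 (1.96 ± 0.33 SE, adjusted p = 0.0124), the crosslinking enzymes Lox (1.57 ± 0.36 SE, adjusted p = 0.0272) and Loxl1 (1.44 ± 0.11 SE, adjusted p = 0.00302) and Pcolce (1.03 ± 0.13 SE, adjusted p = 0.00618). Lower ones included Plod2, a lysyl hydroxylase (-1.35 ± 0.16 SE, adjusted p = 0.0058), and Serpinh1, the collagen chaperone HSP47 (-0.55 ± 0.06 SE, adjusted p = 0.00486).

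Across the Sca-1 gate 6 synthesis genes were higher and 12 lower (10.2% and 7.45% of all genes), and across the CD31 gate 0 and 1 (3.53% and 1.01%). Against E16.5, 2, 1 and 10 of the 33 genes were at least 2-fold higher in the later libraries, by age, where 2.37%, 6.15% and 22.4% of all genes were, and 0, 0 and 1 were lower, where 4.01%, 3.09% and 13.4% were. Serpinh1 was at 1927, 2523, 1825 and 2376 CPM, with a narrower range than Col1a1. Pcolce was at 142, 235, 315 and 736 CPM and Adamts2 at 13.6, 16.0, 19.8 and 153 CPM, both highest in the adult as type I was. Dcn, the proteoglycan decorin, was at 537, 863, 1092 and 11294 CPM, far above the other stages in the adult.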

How the data were processed

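UMI counts per gene and cell, antibody tag counts per cell and a table of cells were used as deposited by the authors. Per the labels and the study's methods, the authors aligned reads to mm10 (GRCm38) with Cell Ranger 3.1.0, kept genes in a minimum number of cells (a gene held by 1 cell is in the matrix), removed in each sample the cells with the most genes or UMIs as likely doublets, and clustered each library in R 4.0 with Seurat 3.1.5. The methods also state that blood cell contaminants were taken out of the processed stromal data. The deposited stroma holds fewer cells than the study reports sequencing. No doublet caller was run here. The mitochondrial fraction of each cell, as deposited by the authors, was read but used in no test. How antibody tags were counted is not given in the sources used here.

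Counts were summed per library, cluster or gate. The members and gene lists were chosen with earlier results of these data known. All 44 collagen genes were accounted for, and values per sample are printed for those with at least 100 CPM in a stromal library or 500 CPM in a cluster of at least 50 cells, with the 5 most alike other genes for Col1a1, Col2a1, Col4a1, Col6a1 and Col10a1. Stroma (4 libraries) was compared with HPs (5), with stage as a block, and antibody-positive with antibody-negative cells of the 4 stromal libraries, with library as a block, by the quasi-likelihood test of edgeR 4.0.16 (R 4.3.3; TMM, filterByExpr, Benjamini-Hochberg over all genes tested). Alternatives were DESeq2 1.42.0, no filter, no block, other antibody levels (0.75 and 1.5), other scaling and folds, and leaving out each library. Levels and thinning were computed in Python 3.11.15 (pandas 2.3.3, numpy 2.4.6, scipy 1.17.1) and drawn with matplotlib 3.10.9. Stages had 1 library each, so no test was made between them or between clusters. On simulated data with 200 changed genes, 4.17% of 2-fold and 94.9% of 8-fold changes were found in stroma against HPs (18407 genes), and 81.4% and 100% across the CD140a gate (16802 genes). The simulation gave all genes the same dispersion and no difference between stages, unlike the data. These percentages therefore do not say how often such changes are found in the real libraries. Depth was 91868751 to 194892476 UMIs per stromal library, and intervals cover counting error only.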

Additional observations from a re-analysis of the deposited data

Results flagged for a closer look

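The positive-to-negative ratio of each of the 24 collagen genes at the 3 gates was looked at in the 4 stromal libraries, 72 groups of 4 values in all, and in 10 of them 1 library lay far from the other 3 by Dixon's test. Chance flags about 1 in 20 such groups. In 7 of the 10, the adult library had the lowest log2 ratio across the Sca-1 gate, at -1.85 for Col2a1, -1.84 for Col9a1, -1.88 for Col9a2, -1.89 for Col9a3, -1.71 for Col11a1, -1.69 for Col11a2 and -1.53 for Col27a1. These chains share their clusters and so are not independent of each other. In the adult, cells with codes made of C and a number were 4.09% of Sca-1-positive and 20.9% of negative cells, against 19.8% to 33.4% of positive cells in the perinatal libraries, and the part of this makeup in the ratios was not tested.

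At the CD31 gate, Col1a2 stood apart in the E18.5 library, with a log2 ratio of 0.39, and Col12a1 in the adult library, with -1.11. At the Sca-1 gate, Col6a1 stood apart in the E18.5 library, with 0.22.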

How the results depend on the processing

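The collagen share of UMIs moved with the denominator: without mitochondrial and ribosomal protein genes and Gm42418 it was 5.08%, 9.74%, 9.07% and 6.84% from E16.5 to adult, as a mean over cells 3.26%, 6.71%, 6.12% and 4.05%, and without the 5% of cells with the most UMIs 3.28%, 6.83%, 6.15% and 4.89%. The E16.5 library was lowest and the E18.5 library highest under each of these 3 and as reported. At a limit of 4-fold, 0 genes were higher and 0 lower at E18.5 and at P0 than at E16.5, 4 were higher and 3 lower in the adult than at E16.5, and 4 were higher and 4 lower in the adult than at P0. The share of all genes past 4-fold is not given here, so these counts cannot be read as particular to collagens.

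The count of genes higher in stroma than in HPs stayed within 1.5 times of 41 under each alternative, with 40 without the replicate block, 43 with DESeq2 and 40 to 43 when 1 library was left out. The 2 sides of a gate come from the same library, so the library block pairs them by design. With no replicate block, 0 genes were higher and 0 lower across the CD140a gate, 0 and 0 across the Sca-1 gate and 1 and 0 across the CD31 gate. When 1 library was left out, the CD140a gate gave 4 to 21 genes higher and 9 to 15 lower, the Sca-1 gate 4 to 15 higher and 0 to 14 lower, and the CD31 gate 0 to 4 higher and 0 to 6 lower. For CD31, lower genes numbered 4 without E16.5, 0 without E18.5 or P0 and 6 without the adult library. At an antibody level of 0.75 the Sca-1 gate gave 1 higher and 1 lower and the CD31 gate 0 and 0, and at 1.5 the CD31 gate gave 5 and 22. CD31 counts of lower genes were 9 with DESeq2 and 7 with no filter on low counts. No share of all genes is given for these settings, so the counts show how the calls moved and nothing particular to collagens. In the comparisons added after seeing the data, the CD140a gate within F codes gave 2 higher and 2 lower, with Col18a1 at -0.11, Col1a1 at -0.080, Col6a3 at -0.048, Col6a2 at -0.035 and Col1a2 at -0.013 on the log2 scale, all reversed, the Sca-1 gate within F codes gave 3 and 6, with Col5a2 reversed at -0.049, and the CD31 gate without endothelial codes gave 0 and 0. The cause of these changes was not tested.

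No cluster was led by blood genes, so the alternative that leaves such clusters out gave no value. With 1 library per stage, depth limits only the genes under 50 UMIs (Col6a4 at every stage, Col4a3 before adulthood, Col6a5 at E18.5, and Col4a6, Col7a1 and Col17a1 in the adult), and the number of libraries limits the rest.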

Other observations

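Several collagen genes lie side by side in the genome (RefSeq, GRCm38). Col4a1 and Col4a2 start head to head on chromosome 8 with 85 bases of overlap, Col4a4 and Col4a3 on chromosome 1 with 114 bases of overlap, and Col4a6 and Col4a5 on chromosome X with 1274 bases between them. Their Pearson's r over the 65 clusters was 0.98, 0.42 and 0.86, where Col4a3 and Col4a4 were near their counting limit in most clusters. Col4a6 and Col4a5 were also low, with medians over clusters of 0.69 and 8.81 CPM, under the 10 CPM added before the log2. Both were highest in P0 UD4. Col6a2 and Col6a1 lie 85161 bases apart on chromosome 10 on the same strand (r 0.99). Col3a1 and Col5a2 lie 24624 bases apart on chromosome 1 and had an r of 0.92, and Col1a1 and Col1a2, on chromosomes 11 and 6, had an r of 0.95.

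Schwann and neural crest-like clusters also held UMIs of fibril and basement membrane chains. Col3a1 was at 1692, 4397 and 3429.6 CPM in them at the 3 perinatal stages and Col4a1 at 452, 783 and 720.0 CPM. This Col3a1 was 95.5%, 186% and 117% of its library level, against 23.3%, 27.0% and 27.2% in the endothelial-like clusters. The part of free RNA in these levels was not tested.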
